A study of Mus musculus with 6 samples.

Results

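The genes described here build the tether that holds the ends of meiotic chromosomes to the nuclear envelope: Majin, Terb1, Terb2, Sun1, Sun2, Kash5 and Speedya. They are defined by function, by a rule that uses no measured value, as the transcript clusters (sets of array probes that together read 1 transcribed region) whose platform annotation names a single one of these genes. Of the 7 genes, 6 had 1 such cluster each, out of 35556 clusters on the array and 21789 with a single gene symbol. Speedya, listed as Spdya, had a cluster that also carries the symbol of a pseudogene, so it was not analysed here.

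The study compared testes of knockout mice with testes of control mice, both taken at postnatal day 15, when the first wave of germ cells has reached the middle of meiotic prophase. Total RNA of each sample, 3 knockout and 3 control, was read on its own Affymetrix mouse gene array, and the values are log2 signals. The labels give no strain, allele design or Cre driver, and the genotype labels were not checked on the arrays. Whether each replicate came from its own animal is not stated, so p-values cover only the spread among these 6 samples, and that spread may be technical.

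In meiotic prophase the telomeres move to the inner nuclear membrane, and forces from the cytoskeleton then pull chromosomes through the nucleus so that homologues can find each other. TERB1 binds the telomere through the shelterin protein TRF1, TERB2 joins TERB1 to MAJIN, and MAJIN anchors the complex in the membrane. SUN1 and SUN2 span the inner membrane and bind KASH5 in the outer membrane, which recruits dynein. Speedy A, the product of Speedya, activates the kinase CDK2 at telomeres. Terb1, Terb2, Majin and Kash5 act in meiotic germ cells, whereas Sun1 and Sun2 are also used by somatic cells.

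The promoter windows at hand differed in composition between these genes. RefSeq windows of 300 bases, from 250 before to 50 after an annotated transcript start (build GRCm38.p6), were matched for 4 of the 6 genes. They are shown because they contrast 2 germ-cell members with the 2 SUN genes. Capitals mark CCAAT, the NF-Y motif, on either strand (ATTGG is the same motif on the other strand). Terb1 lies at chr8:104509838-104510137 on the minus strand, Kash5 at chr7:45204843-45205142 on the minus strand, Sun1 at chr5:139200387-139200686 on the plus strand and Sun2 at chr15:79742487-79742786 on the minus strand.
Terb1: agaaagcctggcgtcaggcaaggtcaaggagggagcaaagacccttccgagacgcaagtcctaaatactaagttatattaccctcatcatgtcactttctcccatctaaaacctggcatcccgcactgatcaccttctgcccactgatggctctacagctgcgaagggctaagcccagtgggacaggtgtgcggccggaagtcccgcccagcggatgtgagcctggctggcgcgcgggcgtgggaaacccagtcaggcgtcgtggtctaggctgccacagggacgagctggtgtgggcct
Kash5: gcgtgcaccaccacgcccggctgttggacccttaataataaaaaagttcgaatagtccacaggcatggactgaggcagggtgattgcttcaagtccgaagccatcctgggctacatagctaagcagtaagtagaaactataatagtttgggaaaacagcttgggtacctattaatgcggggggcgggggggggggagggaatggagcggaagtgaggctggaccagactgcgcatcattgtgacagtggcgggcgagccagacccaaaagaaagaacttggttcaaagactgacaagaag
Sun1: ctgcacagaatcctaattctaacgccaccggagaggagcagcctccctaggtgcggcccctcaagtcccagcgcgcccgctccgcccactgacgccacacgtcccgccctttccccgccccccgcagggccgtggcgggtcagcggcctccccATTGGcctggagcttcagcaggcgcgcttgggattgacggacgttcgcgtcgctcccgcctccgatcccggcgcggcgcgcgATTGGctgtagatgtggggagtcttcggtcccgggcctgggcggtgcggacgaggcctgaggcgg
Sun2: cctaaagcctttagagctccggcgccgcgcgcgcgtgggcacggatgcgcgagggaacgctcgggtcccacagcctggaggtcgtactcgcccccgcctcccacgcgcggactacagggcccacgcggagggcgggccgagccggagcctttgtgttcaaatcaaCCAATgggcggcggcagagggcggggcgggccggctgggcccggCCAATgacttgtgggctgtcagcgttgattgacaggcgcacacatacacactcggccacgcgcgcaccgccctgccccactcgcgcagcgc

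The Sun1 and Sun2 windows each held 2 CCAAT motifs, and those of Terb1 and Kash5 held 0. Of 32851 RefSeq windows of this length, 37.41% held at least 1 and 11.7% at least 2. GGGCGG, the GC box, was found on either strand 4 times in the Sun1 window and 5 times in that of Sun2, against 1 time each in those of Terb1 and Kash5, and 35.66% of all windows held at least 1 and 19.49% at least 2. G and C made up 71.33% of the bases in the Sun1 window and also 71.33% in the Sun2 window, where 92.2% of all windows had less. They made up 59.33% in Terb1 and 52.33% in Kash5, near the median of 52.67%. AACNG, the core motif of MYB factors, was found 2 times in Kash5 and 0 times in Terb1, Sun1 and Sun2 (80.29% of windows held it). CNCCTCAG, a motif reported for STRA8 with MEIOSIN in mice, was found 1 time in Sun1 and 0 times in Terb1, Kash5 and Sun2 (7.94% of windows held it). Each motif was searched on both strands, and no match of the others overlapped a CCAAT motif. A second RefSeq start of Sun1, not shown, had a window with 45.33% G and C, 1 CCAAT, 1 AACNG and 0 GC boxes, unlike the Sun1 window shown. The windows shown for Terb1 and Sun2 lie at the annotated gene start, and those for Kash5 and Sun1 at another transcript start. These counts describe letters only, and binding was not measured.

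The arrays were alike in their distribution, with medians of 8.075 to 8.1 and a lowest pairwise correlation of 0.9954 within and 0.9947 across groups. The labelled tissue was checked on markers of 3 of its cell types: the spermatocyte axis gene Sycp3 averaged 11.65 in knockout and 11.74 in control arrays, the Sertoli cell gene Sox9 11.73 and 11.65, and the peritubular myoid gene Acta2 12.78 and 12.80, all above the upper quartile of any array (at most 9.81). No detection calls were used here, so background is not known, but all 6 tethering clusters lay above the lower quartile of all clusters (6.6).

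Majin (cluster 10460771, chromosome 19), the membrane anchor of the complex, had the widest spread. Its log2 signal was 8.77, 8.95 and 9.13 in knockout replicates 1, 2 and 3, against 8.93, 9.29 and 9.18 in control replicates 1, 2 and 3. Knockout replicate 1 was the lowest array and control replicate 2 the highest, and the groups overlapped because control replicate 1 lay below knockout replicates 2 and 3. The means were 8.95 ± 0.18 in knockout and 9.13 ± 0.18 in control testes (SD, n = 3 each). The difference was -0.18 on the log2 scale (SE 0.117, 0.881-fold, 95% interval 0.728 to 1.06-fold), which did not pass the threshold (adjusted p = 0.630, limma).

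Terb1 (cluster 10581088, chromosome 8), the subunit that binds the telomere, had signals of 8.92, 9.07 and 9.36 in the knockout arrays, against 9.11, 9.10 and 9.30 in the control arrays. The lowest and the highest of the 6 values both came from knockout arrays, so the control values lay within the knockout range. Knockout testes averaged 9.12 ± 0.22 and control testes 9.17 ± 0.11 (SD, n = 3 each), a log2 difference of -0.053 (SE 0.114, 95% interval 0.801 to 1.16-fold, adjusted p = 0.909, limma).

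Terb2 (cluster 10475427, chromosome 2), the bridge between TERB1 and MAJIN, had signals of 8.95, 8.98 and 9.24 in the knockout arrays, against 8.92, 9.08 and 9.08 in the control arrays. Knockout replicate 3 was the highest array, as for Terb1, and the other 5 lay between 8.92 and 9.08. The means were 9.06 ± 0.16 in knockout and 9.03 ± 0.092 in control testes (SD, n = 3 each). Their difference was 0.03 (SE 0.0873, 95% interval 0.886 to 1.18-fold, adjusted p = 0.939, limma), and its sign turned to -0.062 without knockout replicate 3 and to -0.023 without control replicate 1.

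Kash5 (cluster 10563149, chromosome 7), the outer-membrane adaptor for dynein, had signals of 9.23, 9.23 and 9.39 in the knockout arrays, against 9.23, 9.60 and 9.50 in the control arrays. Control replicate 1 had the same value as the 2 lowest knockout arrays, and the other 2 control arrays lay above all knockout arrays. Knockout testes averaged 9.28 ± 0.092 and control testes 9.44 ± 0.19 (SD, n = 3 each). The difference of -0.16 (SE 0.0984, 0.895-fold, 95% interval 0.763 to 1.05-fold) did not pass (adjusted p = 0.618, limma). Kash5 had the smallest p of the 6 genes, and 23.7% of all clusters had a smaller one.

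Sun1 (cluster 10526897, chromosome 5), the main SUN protein of meiotic telomeres, had signals of 10.86, 10.85 and 10.86 in the knockout arrays, against 10.89, 10.99 and 10.85 in the control arrays. The knockout arrays were nearly equal and lay at the low edge of the control range. The difference was -0.053 (SE 0.0482, 95% interval 0.891 to 1.04-fold, adjusted p = 0.743, limma), between 10.86 ± 0.0058 in knockout and 10.91 ± 0.072 in control testes (SD, n = 3 each).

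Sun2 (cluster 10430596, chromosome 15), which can stand in for SUN1 in part, had signals of 10.14, 10.18 and 10.09 in the knockout arrays, against 10.07, 10.17 and 10.11 in the control arrays. The groups overlapped along nearly their whole range. Knockout testes averaged 10.14 ± 0.045 and control testes 10.12 ± 0.050 (SD, n = 3 each), a log2 difference of 0.02 (SE 0.0469, 95% interval 0.939 to 1.09-fold, adjusted p = 0.920, limma).

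**Figure D1:**
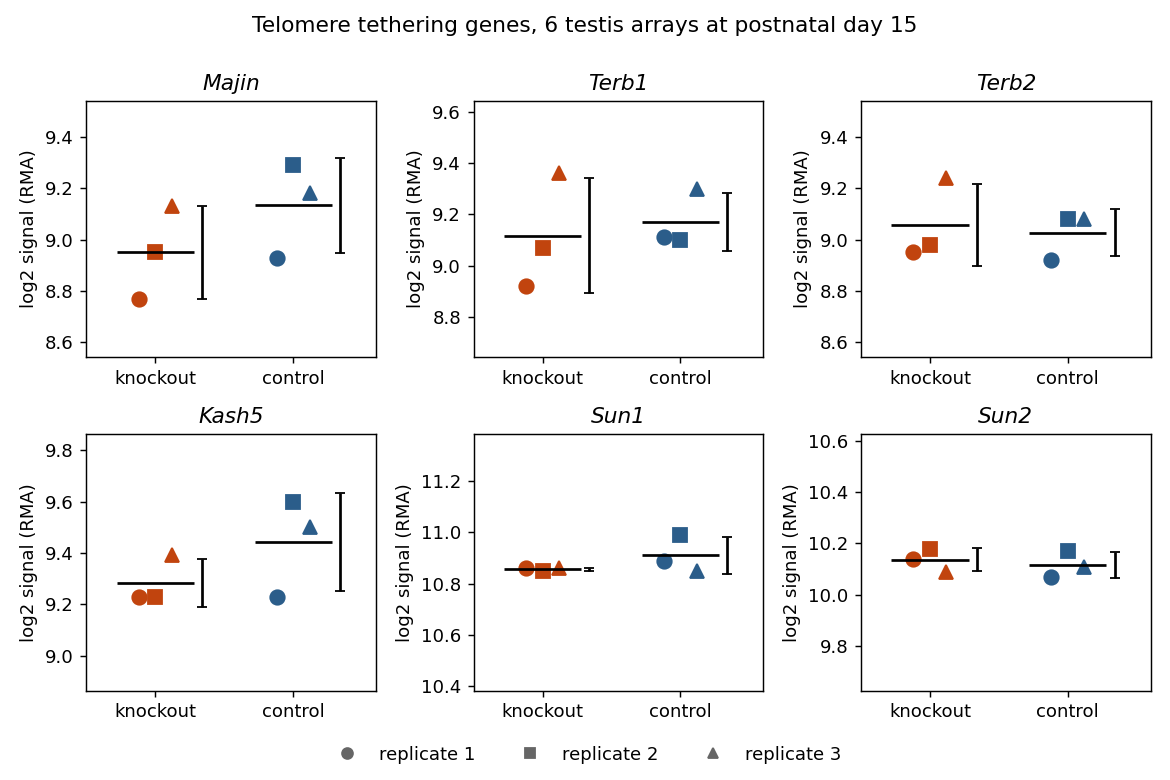
Log2 signal (vertical axis, a span of 1 log2 unit in each panel) of the 6 tethering genes in each knockout (orange, left) and control (blue, right) array; symbols mark the replicate number, horizontal lines the means and bars the SD (n = 3). The groups overlap in all 6 panels, and the points of Sun1 and Sun2 lie closer together than those of the other 4 genes.

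None of the 6 genes passed the test in limma, at an adjusted p under 0.05 (0 of 6) or at an unadjusted p under 0.05 (0 of 6), and the groups overlapped in all 6. Over all 21789 clusters, 0.0138% were called at the adjusted threshold (3 clusters). At the unadjusted threshold it was 10.6% (6.45% lower and 4.10% higher in the knockout), and the groups did not overlap in 15.3% (8.60% lower, 6.73% higher). The exact permutation p-values of the 6 differences, two-sided, ran from 0.3 to 0.8, where 3 arrays against 3 cannot give less than 0.1. The median of the 6 differences was -0.053, with 4 below and 2 above 0, beside a median of 0.0033 over all clusters. Of the 21789 clusters, 11175 lay above 0, 10232 below and 382 at 0. A missed threshold does not show that levels were equal. The intervals of Sun1 and Sun2 leave out a fold below 0.891 and 0.939, while that of Majin reaches down to 0.728-fold.

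**Figure D2:**
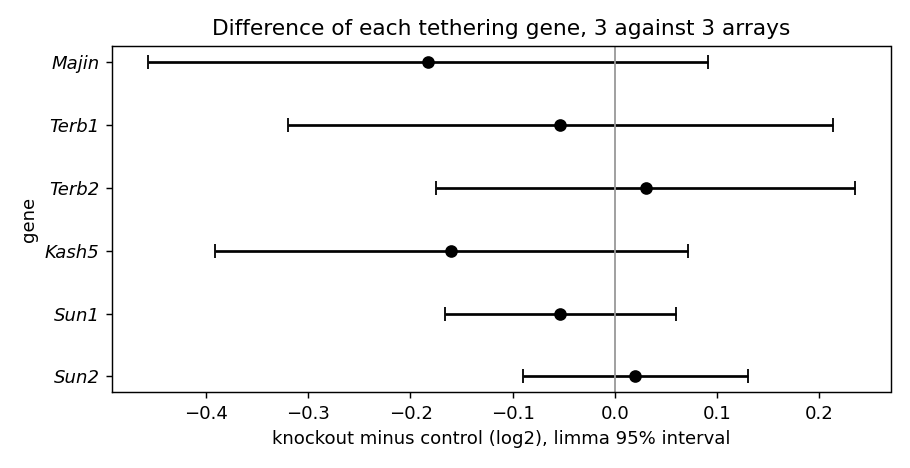
Knockout minus control difference of each tethering gene (points, log2) with its 95% interval from limma (bars), 3 arrays against 3. All 6 intervals include 0, from -0.46 to 0.091 for Majin to -0.09 to 0.13 for Sun2.

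The 6 genes differed in how much they varied among arrays of the same genotype. The within-group SD was 0.182 for Majin, 0.177 for Terb1, 0.150 for Kash5 and 0.130 for Terb2, above those of 95%, 94.6%, 90.7% and 85.9% of all clusters. It was 0.0512 for Sun1 and 0.0478 for Sun2, above those of 28.9% and 25.3%, with a median of 0.0705 over all clusters. The 4 genes of meiotic cells were among the more variable clusters and the 2 SUN genes among the steadier ones. This is a description of 6 arrays with no test.

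Several of the 6 genes were high or low in the same arrays, and this was not limited to the 4 meiotic genes. Knockout replicate 3 was the highest knockout array for Majin, Terb1, Terb2 and Kash5, but the lowest for Sun2 (-0.027 relative to the control mean). Control replicate 1 was the lowest control array for Majin, Terb2, Kash5 and also Sun2 (-0.047). Relative to the control mean, Terb1 and Terb2 stood at 0.19 and 0.21 in knockout replicate 3, the highest of all 6 arrays for both. Majin and Kash5 were highest in control replicate 2, at 0.16 above the control mean each, and stood at -0.0033 and -0.053 in knockout replicate 3. Sun1 was also highest in control replicate 2, at 0.08.

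Markers of meiotic stages also varied between arrays. The 12 early meiotic prophase markers averaged -0.14, -0.10 and 0.09 relative to the control mean in knockout replicates 1, 2 and 3, against -0.020, -0.028 and 0.048 in control replicates 1, 2 and 3. Knockout replicate 3 was their highest array, as for Terb1 and Terb2. The 12 pachytene spermatocyte markers averaged -0.56, -0.51 and -0.30 in the knockout arrays, against -0.37, 0.23 and 0.14 in the control arrays. Control replicate 2 was their highest array, as for Majin, Kash5 and Sun1. In bulk tissue, fewer cells of a type and less RNA per cell cannot be told apart. The part of these markers in the values of the tethering genes was not tested.

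**Figure D3:**
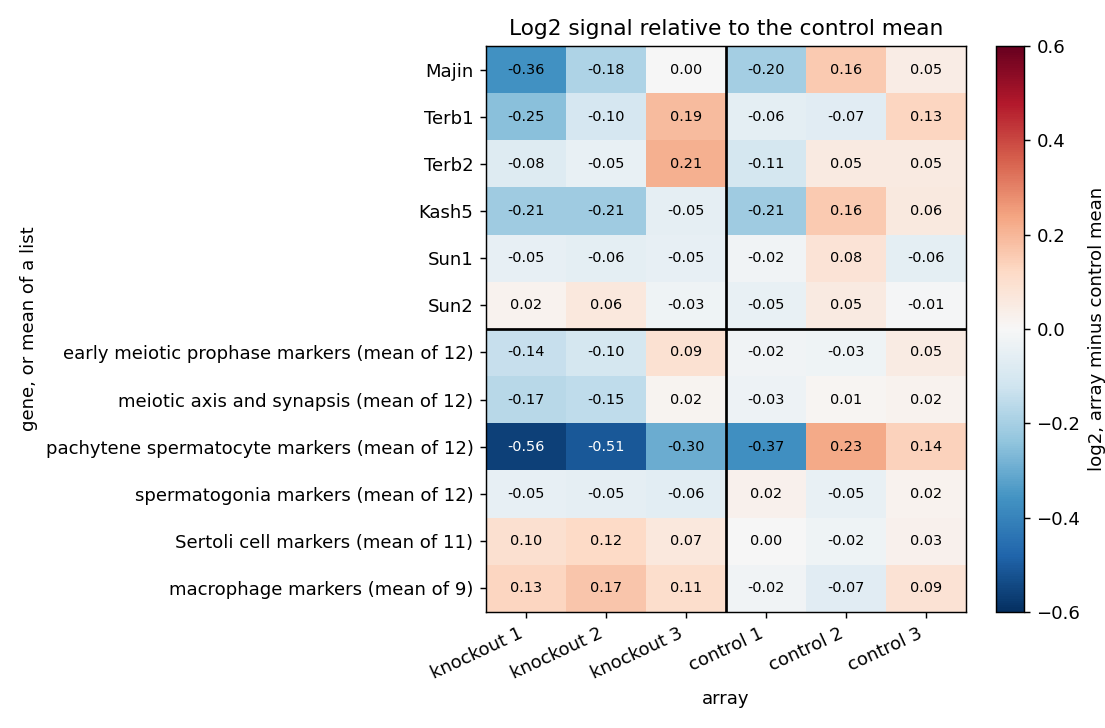
Log2 signal of each array minus the control mean (colour and printed value) for the 6 tethering genes (upper rows) and for the means of 6 marker lists (lower rows), with knockout arrays on the left and control arrays on the right. Knockout replicate 3 is the highest array for Terb1, Terb2 and the early prophase markers (0.19, 0.21 and 0.09). Control replicate 2 is the highest for Majin, Kash5, Sun1 and the pachytene markers (0.16, 0.16, 0.08 and 0.23).

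Leaving out control replicate 1 moved Majin and Kash5 the most. Without it the difference was -0.285 for Majin (unadjusted p = 0.0372, adjusted p = 0.451 in limma) and -0.27 for Kash5 (unadjusted p = 0.00852, adjusted p = 0.256 in limma). Neither passed. Without knockout replicate 3, Terb1 differed by -0.18 (adjusted p = 0.593 in limma), and without knockout replicate 1 or control replicate 3 its sign turned, to 0.045 and 0.012. Over all 13 settings the adjusted p of Majin ran from 0.451 to 1, that of Kash5 from 0.256 to 1 and that of Terb1 from 0.593 to 1.

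Majin had the largest range over the 6 arrays (0.52), and the genes whose values followed it most closely were searched among 7288 clusters whose SD was at least 0.5 times that of Majin. The highest Pearson r over the 6 arrays was that of Sugp1, a splicing-associated protein (r = 0.9997), with signals of 10.37, 10.46 and 10.56 in knockout arrays against 10.45, 10.64 and 10.58 in control arrays. Dnajb13, a protein of motile cilia and flagella, followed (r = 0.988), with 6.97, 7.17 and 7.47 in knockout arrays against 7.21, 7.85 and 7.65 in control arrays. The third was Dynlrb2, a light chain of cytoplasmic dynein, the motor that KASH5 recruits (r = 0.985). Its signals were 6.87, 7.13 and 7.38 in knockout arrays against 7.07, 7.80 and 7.63 in control arrays, so control replicate 1 again lay among the knockout arrays. The arrays are 6 in number and the genes were picked for their likeness, so the r values describe these arrays only.

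The telomere side of the tether was followed in shelterin, which caps chromosome ends, and in the CST complex. None of 10 measured genes was called. Control means were exceeded in 2 and not reached in 8, and the median difference was -0.05. Tinf2, the scaffold that joins TRF1, TRF2 and TPP1, had signals of 10.17, 10.17 and 10.15 in the knockout arrays, against 10.37, 10.33 and 10.34 in the control arrays. Its knockout arrays lay below all control arrays, in 1 of the 10 genes, beside 8.60% of all clusters. The difference of -0.18 (SE 0.0382) did not pass over all clusters (adjusted p = 0.288, limma). Majin had a difference of like size with an SE of 0.117. Acd, which encodes TPP1, differed by -0.097, Ten1 of CST by -0.093 and Terf2, which encodes TRF2, by -0.057, and their groups overlapped. Terf1, the telomere partner of TERB1, named outside the rule after its values were seen, averaged 10.07 ± 0.047 in knockout and 10.12 ± 0.10 in control testes (SD, n = 3 each).

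The envelope side was followed in the other SUN and KASH proteins, most of which link the nucleus to actin, microtubules or intermediate filaments in other cells. None of 8 was called, with differences above 0 in 6 and below 0 in 2 and a median of 0.053. Sun3, a SUN protein of the spermatid manchette, had signals of 6.0, 5.90 and 5.90 in the knockout arrays, against 6.22, 6.33 and 6.22 in the control arrays, below the lower quartile of the arrays in both groups. Its knockout arrays lay below all control arrays, in 1 of the 8 genes, beside 8.60% of all clusters. Its difference of -0.32 (SE 0.0521) did not pass (adjusted p = 0.242, limma). Syne3, which encodes nesprin-3, a link to intermediate filaments, differed by 0.14 the other way (SE 0.0429, adjusted p = 0.367, limma). Its signals were 8.89, 8.87 and 8.80 in knockout against 8.73, 8.69 and 8.71 in control arrays. The knockout arrays lay above all control arrays in this 1 gene of the 8, beside 6.73% of all clusters. Spag4 differed by -0.073 and Sun5 by 0.067, both SUN proteins of spermatids, and their groups overlapped.

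The motor that KASH5 engages was followed in dynein-1 and its partner dynactin. Of 20 measured genes, 7 differences were above 0 and 13 below, the median was -0.013 and none was called. Dynlrb2 had the largest difference (-0.37, SE 0.201, adjusted p = 0.554, limma). The light intermediate chain Dync1li2 had 10.53, 10.58 and 10.52 in the knockout arrays, against 10.61, 10.62 and 10.67 in the control arrays (difference -0.09, adjusted p = 0.501, limma). In this 1 of the 20 genes the knockout arrays lay below all control arrays, beside 8.60% of all clusters. The intermediate chain Dync1i1 differed by 0.093 and the light chain Dynlrb1 by 0.053, and in both the lowest knockout array did not exceed the highest control array. Of 11 genes of the nuclear lamina and inner nuclear membrane, 7 differences were above 0, 3 below and 1 at 0, the median was 0.0033 and none was called. The lamin B receptor gene Lbr had the smallest p (-0.097, adjusted p = 0.484, limma), followed by Lemd2 (0.067), Tor1aip1 (0.073) and Banf1 (-0.05). Lbr was the 1 gene of the 11 whose knockout arrays lay below all control arrays, beside 8.60% of all clusters.

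CDK2, the kinase that Speedy A activates, was followed with its cyclins, inhibitors and binding partners. Cdk2 itself, named after its values were seen, averaged 11.37 ± 0.021 in knockout and 11.37 ± 0.040 in control testes (SD, n = 3 each). Of 8 measured genes, 6 had differences below 0, 1 above and 1 at 0, the median was -0.08 and none was called. The meiotic cyclin Ccna1 had 7.29, 7.19 and 7.17 in the knockout arrays, against 7.37, 7.59 and 7.50 in the control arrays (difference -0.27, SE 0.0661, adjusted p = 0.320, limma), with no overlap. Cks2, which binds cyclin-dependent kinases, is read by 3 clusters, and only the one with the highest mean is given here. It differed by -0.21 (adjusted p = 0.296, limma), and Ccna2 by -0.097 (adjusted p = 0.519, limma), also with no overlap. In these 3 of the 8 genes the knockout arrays lay below all control arrays, beside 8.60% of all clusters. The cyclin E gene Ccne1 differed by -0.14 with overlapping groups.

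The chromosomes that the tether holds were followed in genes of the meiotic axis and synapsis. Of 12 measured genes, 10 had differences below 0 and 2 above, and the median was -0.063. None was called, and 3 had an unadjusted p under 0.05, all lower in the knockout, as did 6.45% of all clusters. In 3 of the 12 the knockout arrays lay below all control arrays, beside 8.60% of all clusters. Among them were the meiotic cohesins Stag3 (-0.22) and Rec8 (-0.40) (adjusted p = 0.320 and 0.347, limma). The third was Sycp3, also used above as a marker (-0.097, adjusted p = 0.518, limma). Syce1 of the synaptonemal complex (-0.20) and the cohesin Smc1b (-0.17) had groups that overlapped. Of 12 early prophase markers, 7 had differences below 0 and 5 above, the median was -0.018 and none was called. An unadjusted p under 0.05 was reached by 3 of them, all lower in the knockout (6.45% of all clusters), and in 3 the knockout arrays lay below all control arrays (8.60% of all clusters). Spo11, the topoisomerase-like protein that cuts DNA to begin recombination, had the smallest p (-0.35, adjusted p = 0.256, limma). It was followed by Mei1 (-0.23), Rec114 (-0.14) and Mei4 (0.09), all needed for those cuts in mice.

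All 12 pachytene spermatocyte markers had differences below 0, and their median was -0.47. None was called. Of the 12, 8 had an unadjusted p under 0.05, all lower in the knockout, beside 6.45% of all clusters, and in 3 the knockout arrays lay below all control arrays, beside 8.60%. Cks2 and Ccna1 are in this list and, with the same clusters, in that of CDK2 above. Besides them, Tcp11 (-0.74, adjusted p = 0.374, limma) and Tdrd6 (-0.80, adjusted p = 0.376, limma) had the smallest p-values. Tdrd6 had 6.59, 6.68 and 7.04 in the knockout arrays, against 6.98, 7.93 and 7.79 in the control arrays, which overlapped through control replicate 1, as for Majin. The median of these markers lay further from 0 than any tethering gene, and whether they differ in this was not tested. This list, like the others, was proposed with earlier results of these data known, so its counts are a description only.

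**Figure D4:**
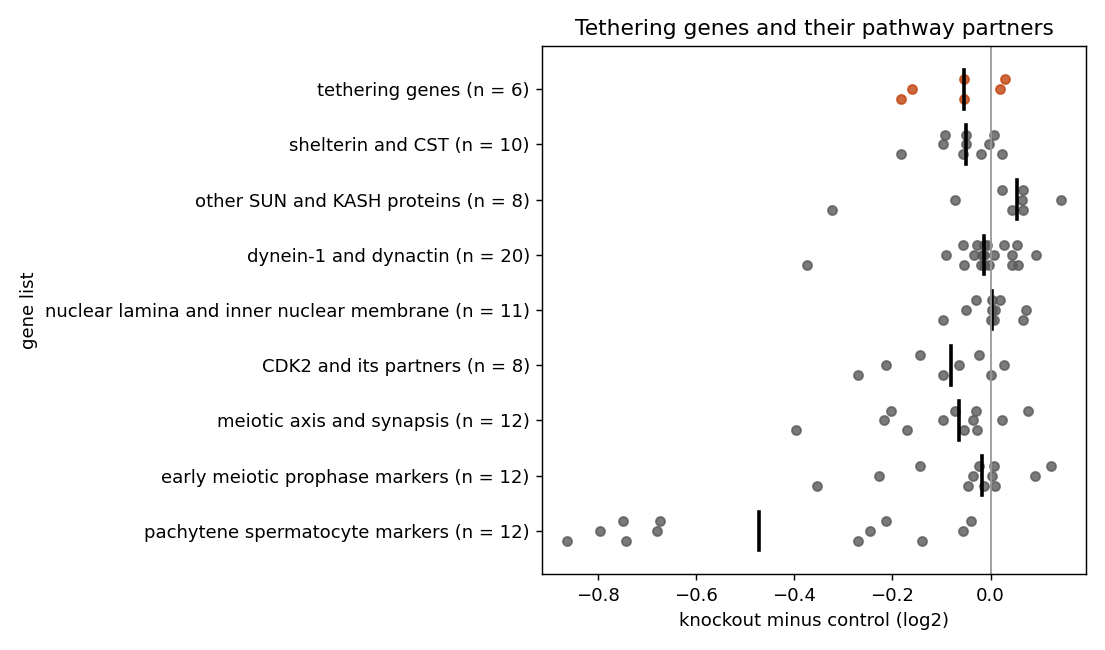
Knockout minus control difference (log2, horizontal axis) of each gene (points) in the tethering set (orange) and in 8 lists of partners and stage markers (grey), with list medians as black bars. The tethering genes run from -0.18 to 0.03 with a median of -0.053, and the pachytene markers from -0.86 to -0.04 with a median of -0.47.

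Markers of the other cells of the testis are set beside these values. Differences were above 0 in 10 of 11 Sertoli cell markers (median 0.087), and their mean per array was 11.10 to 11.16 in knockout and 11.01 to 11.06 in control arrays. Kitl, the stem cell factor, had the smallest p of that list (0.28, adjusted p = 0.235, limma), and Nr5a1 differed by 0.18. All 9 macrophage markers had differences above 0, with a median of 0.13 and list means of 9.06 to 9.12 in knockout and 8.88 to 9.04 in control arrays. Cx3cr1 and the complement gene C1qc differed by 0.16 each. Of 12 spermatogonia markers, 9 had differences below 0 and 3 above, with a median of -0.11 and list means of 9.72 to 9.74 in knockout and 9.74 to 9.81 in control arrays. Gfra1, the GDNF receptor, differed by 0.39 and Sall4 by -0.30. An unadjusted p under 0.05 in limma was reached by 5 spermatogonia markers lower and 2 higher in the knockout (6.45% and 4.10% of all clusters). The same genes had groups that did not overlap (8.60% and 6.73% of all clusters). Of the Sertoli cell and macrophage markers, 3 each reached it, all higher. Their knockout arrays lay above all control arrays in 4 Sertoli cell and 3 macrophage markers. None of these markers was called, and their part in the values of the tethering genes was not tested.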

How the data were processed

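The authors deposited 1 log2 value per transcript cluster and array, made with RMA (background correction, quantile normalisation and probe summary) in Affymetrix Expression Console, per the submitters' processing notes. Neither versions nor a probe annotation is stated, and the array's genome build is not given in the sources used here. RMA gives all arrays 1 distribution, so a shift of all transcripts would not be seen. With 3 arrays a group, their number limits the precision.

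Clusters were named through the platform annotation, with symbols updated by gene identifier to GRCm38.p6 (21698 of 21789 matched). Rows with several symbols (1621) or none (12146) were not tested. Knockout was compared with control in limma 3.58.1 under R 4.3.3 (lmFit and eBayes, no covariates, 4 residual and 3.24 prior degrees of freedom), with Benjamini-Hochberg adjustment over 21789 clusters, a threshold of 0.05 and 95% intervals. The procedure was tested on simulated data. No array was a copy of another (at most 4.12% identical values). The targeted gene is not reported here.

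The lists were shelterin and CST, other SUN and KASH proteins, dynein-1 and dynactin, nuclear lamina and inner nuclear membrane, CDK2 and its partners, meiotic axis and synapsis, and markers of early prophase, pachytene, spermatogonia, Sertoli, Leydig, macrophage, and myoid with endothelial cells; 7 of 146 entries were not analysed here. A gene with several clusters was represented by the one with the highest mean. The rule names all tethering clusters, up to 4 genes per list with the smallest p, and the 3 genes most like a tethering gene whose range reached 0.5. The rule for the tethering genes uses no measured value, but these genes, like the lists, were proposed with earlier results of these data known, and lists were described and not tested. Alternatives were a replicate block, an intensity trend with robust prior, a filter on dim clusters (below the 25th percentile), all rows, median centring, treat at 1.2-fold and leaving out each array.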

Additional observations from a re-analysis of the deposited data

How the results depend on the processing

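None of the 6 tethering genes was called under any of the 12 alternatives. Majin, Kash5 and Sun1 kept their sign in all of them. With 1 array left out, Terb1 ranged from -0.18 to 0.045, Terb2 from -0.062 to 0.083 and Sun2 from -0.0033 to 0.047, so each changed sign in 2 of the 6 leave-outs, and in no other alternative. The median of the 6 differences stayed negative, from -0.12 to -0.018 with 1 array left out. The count of called clusters, 3 over all arrays, came to 0 under a replicate block, 7 with an intensity trend and robust prior, 0 with all rows tested, 0 with treat, and from 0 (without control replicate 3 or any knockout replicate) to 52 (without control replicate 1); without control replicate 2 it was 1. The labels do not say that replicate numbers pair the arrays, so the main fit had no block. Deviations of arrays of the same number had correlations of 0.17, -0.054 and 0.17. Those of unlike number ran from -0.23 to 0.084, so these values do not settle whether the arrays are paired. Under the replicate block Majin differed by -0.18 (adjusted p = 0.454, unadjusted p = 0.0388, limma). Neither scanner files nor detection p-values were used here, so the signal over background of each cluster is unknown.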

Other observations

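Leydig cell markers, not described above, had differences above 0 in 5 of 6 genes (median 0.25), with list means of 9.81 to 9.96 in knockout and 9.59 to 9.89 in control arrays. Cyp11a1, which starts steroid synthesis, had 10.29, 10.42 and 10.07 in knockout against 9.99, 9.69 and 9.98 in control arrays, while Hsd17b3, which makes testosterone, had 8.94, 9.17 and 9.04 in knockout against 9.62, 9.31 and 9.51 in control arrays. The groups did not overlap in either gene, as in 15.3% of all clusters, and neither passed (adjusted p = 0.367 and 0.292, limma). Of 8 peritubular myoid and endothelial markers, 7 had differences below 0 and 1 above (median -0.02), with overlapping groups in all 8 and list means of 9.66 to 9.82 in knockout and 9.75 to 9.89 in control arrays. Tagln (-0.15) and Kdr (-0.13) had the smallest p-values among them.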
